A study of Homo sapiens with 12 samples.

Results

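The collagen genes were taken as every gene symbol written as COL, a number, A and a number, which gave 44 of the 25718 genes in the count tables. A gene with several RefSeq transcripts was represented by the transcript with the highest mean count over the 12 samples. Of these 44 genes, 29 had a mean of more than 10 counts and entered the tests, together with 11451 genes in all. Human embryonic stem cells of the H9 line, an established line, were expanded on γ-irradiated mouse embryonic fibroblasts and transduced at an MOI of 50 with a lentiviral vector that expresses miR-10a or miR-10b together with GFP under Tet regulation. All 4 groups of 3 samples carried such a vector and went through 14 days of neural induction with SHH at 200 ng/ml and CT0.8, which patterns cells towards the midbrain. The miR10a doxy and miR10b doxy groups received doxycycline on days 11 to 14, and the miR10a NOdoxy and miR10b NOdoxy groups, called controls here, held the same transduced cells without the drug. An effect of doxycycline itself and an effect of the microRNA cannot be told apart in this design, because no group without a microRNA received the drug. The labels do not say that the 3 samples of a group were separate cultures, so the p-values measure only the spread between these samples.

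Collagens are secreted or membrane-bound proteins built from 3 chains wound into a triple helix. Fibrillar collagens assemble into the tensile fibrils of connective tissue, fibril-associated collagens decorate those fibrils, type IV collagen forms the network of basement membranes, and type VI collagen forms beaded filaments. The developing neural tube lies on a basement membrane, whereas fibrillar collagens are best known from mesenchyme, meninges and vessels.

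The libraries held between 10545487 and 14165426 counts, and in each vector every control was deeper than every doxycycline sample. A count of 3 corresponded to 0.212 to 0.284 CPM (counts per 1000000 counts of the library), and such floors cover counting error only. The induction was visible in the precursor genes. MIR10A stood at 724 ± 10.8 CPM (SD, n = 3) with doxycycline and 0.999 ± 0.363 CPM in its controls, and MIR10B at 2619 ± 67.5 CPM against 3.55 ± 0.807 CPM. The neural progenitor list was abundant in all groups, with SOX2 means of 1034 to 1170 CPM. Of the pluripotency genes LIN28A had group means of 899 to 1539 CPM and DPPA4 of 105 to 147 CPM, whereas POU5F1 and NANOG, which have several transcripts each, had at most 3 counts in any sample.

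The mature sequence of miR-10a-5p from RefSeq (GRCh38.p14) is shown because the comparison concerns what this microRNA could pair with, and its capitals mark the seed, bases 2 to 8.
miR-10a-5p: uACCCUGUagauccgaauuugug
For each gene the longest annotated 3′ untranslated region of any coding transcript was used, which need not belong to the counted transcript. These regions of the collagen genes were searched on the sense strand for ACAGGGTA (an 8mer match), ACAGGGT (7mer-m8) and CAGGGTA (7mer-A1). Each gene was counted under its longest match. Of the 29 tested collagen genes, 26 held none of these letters, against 78.9% of the 9258 tested genes with an annotated region. The longest match was an 8mer in 1 collagen gene, a 7mer-m8 in 1 and a 7mer-A1 in 1, against 2.59%, 13.7% and 4.81% of the tested genes. The regions of the collagen genes were also shorter, with a median of 1067 nt against 1553 nt. The 8mer lay in COL4A4 on the minus strand at chr2:227867912-227867919 (hg19) and the 7mer-A1 in COL24A1 on the minus strand at chr1:86195946-86195952. Both sites are shown with their flanks, the match in capitals.
COL4A4: atgattctcACAGGGTAtataaatta
COL24A1: ggaattcttCAGGGTAtcttatatt
COL20A1 held 2 matches of the 7mer-m8 kind, at chr20:61964779-61964785 and chr20:61965963-61965969 on the plus strand. Its searched region was 4135 nt long, whereas its counted transcript had 4172 nt in all. Whether that transcript holds these matches was not tested. None of the collagen genes that changed with doxycycline, all of them in the miR-10b cultures and described next, held a match to these letters, which come from miR-10a-5p. The sequence of miR-10b-5p was not analysed here, although the paper used the same predicted miR-10 target sites for both vectors. A match is a description of letters and not a measured site.

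Most collagen counts fell on COL4A2, COL6A1 and COL4A1, which together took 70.7% to 80% of them in a sample. All collagen genes together took 0.238% to 0.28% of the counts. Both shares are of counts, not corrected for length. They do not give shares of the collagen RNA, because genes with several transcripts may be undercounted, as described below. Levels between genes are compared here only per length, as CPM per kilobase of transcript (RPKM), and only among the 24 tested genes with a single RefSeq transcript. COL4A2 had a mean of 162 RPKM over the 12 samples, COL6A1 of 118 and COL4A1 of 66.9. COL27A1, a minor fibrillar collagen, and COL5A2, a chain of type V collagen, followed at 19.6 and 19.2 RPKM. COL3A1, the homotrimeric fibrillar collagen of soft tissues, had 14.9 RPKM and COL1A1, the α1 chain of type I collagen, 11.1 RPKM.

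**Figure D1:**
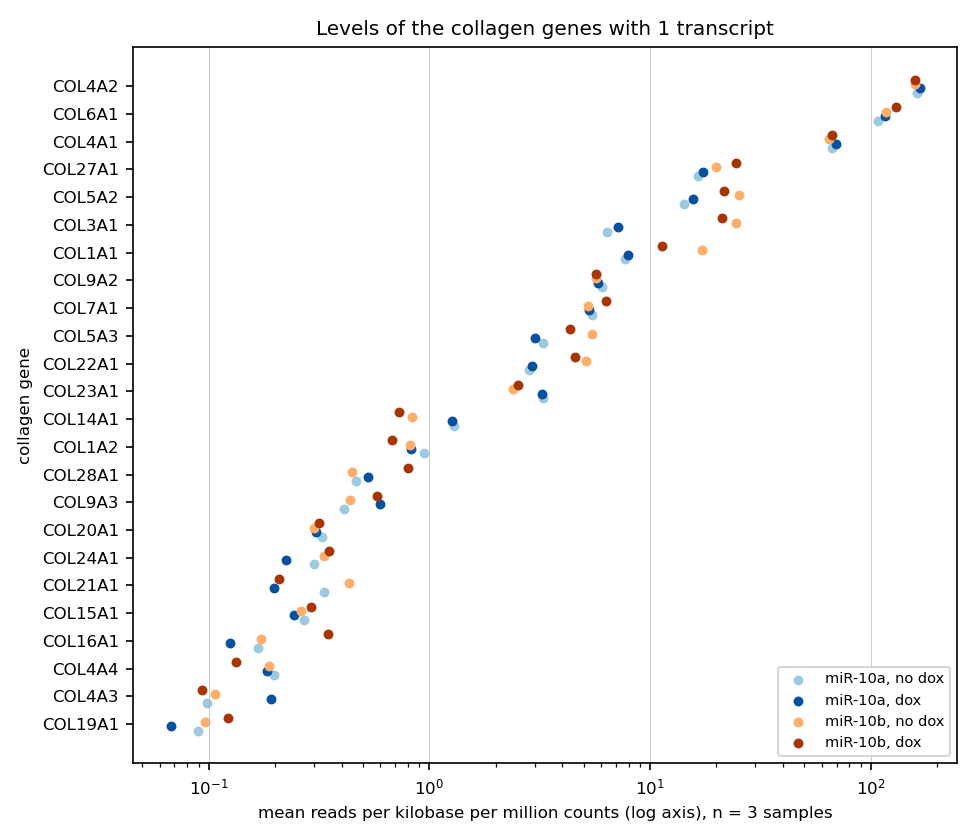
Mean RPKM per group (log axis, n = 3 samples per point) of the 24 tested collagen genes with 1 RefSeq transcript, ordered by their mean over all samples. COL4A2, COL6A1 and COL4A1 stand above all others, and COL3A1 and COL1A1 lie higher in both miR-10b groups than in both miR-10a groups.

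The order below COL4A1 depended on the group. In the miR-10b controls COL5A2 and, at 24.6 RPKM, COL3A1 were above COL27A1 at 19.9 RPKM. In the miR-10a groups COL5A2 was below COL27A1, and COL3A1, at 7.18 RPKM with doxycycline and 6.4 RPKM without, was below COL1A1 at 7.97 and 7.7 RPKM. The levels fell over a wide range, down to 0.094 RPKM for COL19A1. The chains of a trimer were not at equal levels. The RPKM of COL4A2 was 2.32 to 2.5 times that of COL4A1 in every sample, and that of COL1A1 was 7.05 to 23.1 times that of COL1A2, its partner chain in type I collagen.

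For genes with several RefSeq transcripts a low count does not show a low level. GAPDH, with 4 transcripts, had a summed mean of only 50.9 counts where ACTB had 107120, and whether reads shared by transcripts were counted is not given in the sources used here. In the same way 24 of 27 collagen genes with 1 transcript passed the filter but only 5 of 17 with several did. Among the 15 genes not tested were COL5A1, COL6A3, COL11A1, COL4A5 and COL4A6, and COL13A1, COL26A1, COL6A5 and COL8A2 had no count in any sample.

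Doxycycline in the miR-10a cultures left no collagen gene past the threshold, which was a p of 0.05 by the edgeR quasi-likelihood fit, adjusted after Benjamini and Hochberg across the 11451 genes tested. Of the 29 collagen genes 0 were called, where 1.21% of all genes were, and DESeq2 called 0 as well. At an unadjusted p of 0.05 there were 6 collagen genes, against 11.2% of all genes. The median log2 fold change of the 29 was -0.01, and that of all genes 0.01. In 6 genes all doxycycline samples lay above all controls and in 2 genes below, where 10.5% and 7.75% of all genes did so (18.2% in either direction). COL6A1 was among the 6, with 496, 487 and 493 CPM against 449, 476 and 448 CPM in the controls (log2 fold change 0.10 ± 0.04 SE, edgeR adjusted p = 0.22). It was the gene that passed when miR10b doxy replicate 2 was left out or the 6 miR-10a samples were fitted alone (adjusted p = 0.0325 in both fits).

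In the miR-10b cultures 11 of the 29 collagen genes changed with doxycycline, where 15.3% of all genes were called. COL1A1, COL3A1, COL5A2, COL5A3, COL12A1 and COL21A1 fell, 6 genes where 7.15% of all genes fell. COL6A1, COL7A1, COL16A1, COL27A1 and COL28A1 rose, 5 genes where 8.18% of all genes rose. The median log2 fold change of the 29 was 0.01, beside 0.02 for all genes. In 6 genes all doxycycline samples lay above all controls and in 8 below, beside 16.3% and 12.3% of all genes (28.7% in either direction). In bulk samples such as these, fewer cells of a type and less RNA per cell cannot be told apart. The count was 7 without miR10b doxy replicate 2 and 6 with DESeq2, which gave 4 of the 11 genes no adjusted p because of their low counts. Replicate 2 of miR10b doxy lay further from replicates 1 and 3 (chi-square per degree of freedom 3.17 and 4.11) than these from each other (1.43).

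Of the 8 tested fibrillar collagens 4 fell and 1 rose, beside 7.15% and 8.18% of all genes. COL1A1 (chr17:48261462-48278993, minus strand, hg19) had 60.9, 65.9 and 75.4 CPM with doxycycline and 107, 89.8 and 109 CPM in the controls. Every doxycycline sample was below every control, and the log2 fold change was -0.60 ± 0.06 (SE, edgeR adjusted p = 1e-08), a level 0.66 times that of the controls. COL1A2, its partner chain, had 2.94 to 4.32 CPM with doxycycline and 3.56 to 5.26 CPM without. These ranges overlapped, and the log2 fold change of -0.27 ± 0.19 was not called (adjusted p = 0.38).

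COL3A1 and COL5A2 lie tail to tail on chromosome 2, with 19151 bp between them. COL3A1 (chr2:189839099-189877472, plus strand) stood at 120, 114 and 117 CPM with doxycycline and at 131, 136 and 138 CPM without. COL5A2 (chr2:189896624-190090038, minus strand) stood at 149, 149 and 150 CPM with doxycycline and at 170, 174 and 182 CPM without. Neither gene's groups overlapped. Their log2 fold changes were small and alike, -0.21 ± 0.04 for COL3A1 (adjusted p = 0.00038) and -0.23 ± 0.04 for COL5A2 (adjusted p = 4.6e-05).

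COL5A3 (chr19:10070237-10121180, minus strand) encodes a further chain of type V collagen, which helps to set fibril diameter. It had 27.8, 27.6 and 24.6 CPM with doxycycline against 34.3, 32.6 and 34.6 CPM. The groups did not overlap, and the log2 fold change was -0.34 ± 0.08 (adjusted p = 0.0012). Of its exonic bases 3.98% are shared with another annotated gene, and strand-specific counting is not stated in the sources used here. COL27A1 (chr9:116917817-117074791, plus strand) went the other way, with 134, 149 and 127 CPM against 118, 109 and 106 CPM. All of its doxycycline samples lay above the controls, with a log2 fold change of 0.30 ± 0.05 (adjusted p = 3e-05). COL2A1, the collagen of cartilage and notochord, which early neural tissue also transcribes, had a log2 fold change of 0.00 ± 0.05 (adjusted p = 0.97).

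**Figure D2:**
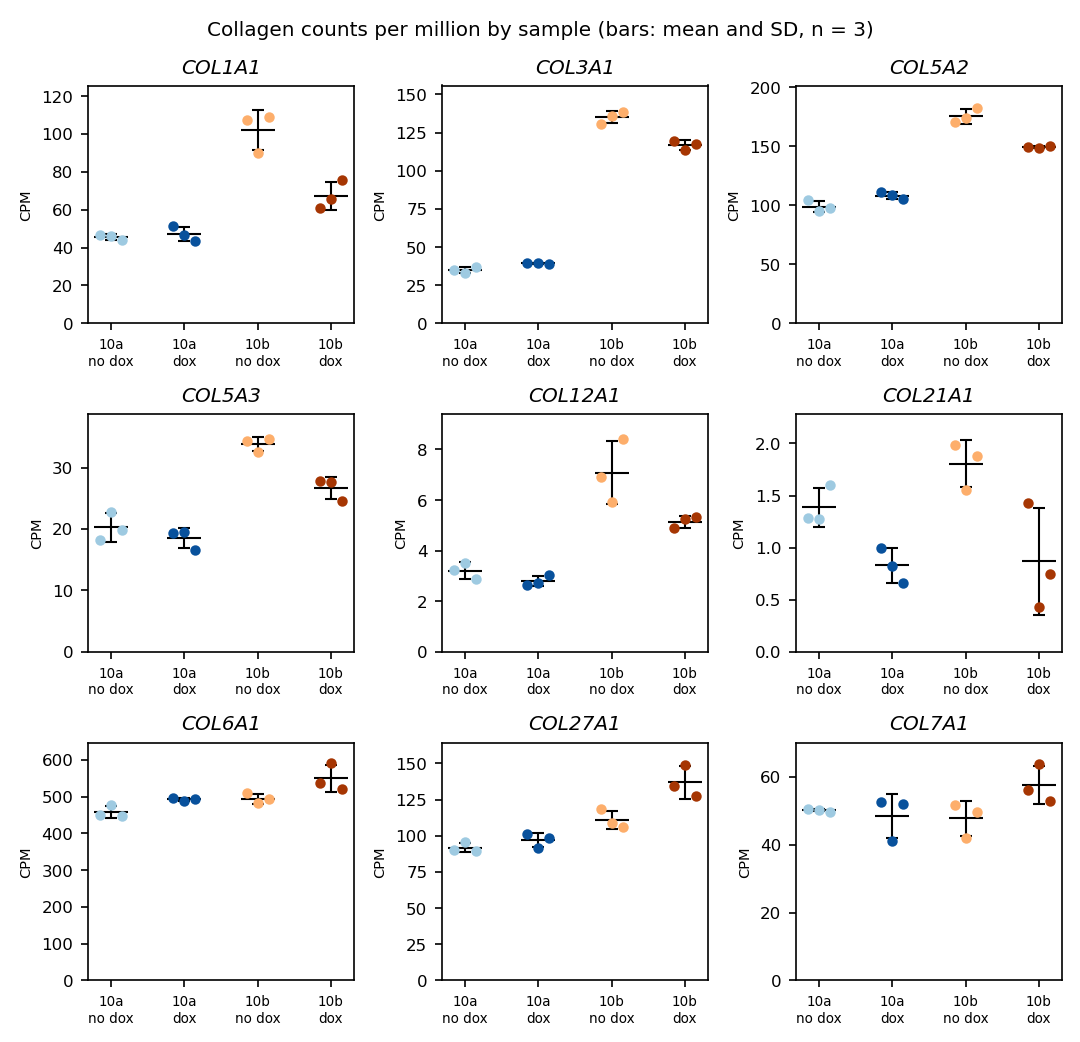
CPM in every sample (points) with the mean and SD of each group of 3 (bars) for 9 collagen genes that changed with doxycycline in the miR-10b cultures, vertical axes starting at 0. The top 2 rows hold the 6 genes that fell, led by COL1A1 with 60.9 to 75.4 CPM against 89.8 to 109 CPM, and the bottom row holds 3 that rose; the offset of the miR-10b from the miR-10a groups is widest in COL3A1.

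Among the 10 fibril-associated collagens, all of which were tested, 2 fell and 1 rose, beside the same 7.15% and 8.18% of all genes. COL12A1, found on the surface of type I fibrils, had 4.88, 5.23 and 5.32 CPM with doxycycline and 6.91, 5.93 and 8.41 CPM without (log2 fold change -0.46 ± 0.14, adjusted p = 0.023). COL21A1 had 1.43, 0.429 and 0.748 CPM against 1.99, 1.56 and 1.88 CPM (-1.04 ± 0.30, adjusted p = 0.016). COL16A1 had 2.19, 2.4 and 1.25 CPM against 0.953, 0.741 and 1.2 CPM (1.00 ± 0.31, adjusted p = 0.025). None of these 3 genes had overlapping groups, but all rest on few counts.

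Single libraries decided several of these calls. COL12A1 was lost without miR10b doxy replicate 1 or miR10b NOdoxy replicate 3 (adjusted p up to 0.21). COL21A1 was lost without miR10b doxy replicate 2 or 3 or miR10b NOdoxy replicate 1 or 3 (up to 0.13), and COL16A1 without miR10b doxy replicate 1 or 2 or miR10b NOdoxy replicate 1 or 2 (up to 0.12). The other fibril-associated genes, type IX collagen included, were not called. COL9A2, the only type IX chain above 3 CPM, had 15 to 17.6 CPM with doxycycline and 15.2 to 17.4 CPM without.

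The basement membrane collagens showed no call in either vector. COL4A1 had 438, 433 and 436 CPM with doxycycline and 426, 412 and 433 CPM in the miR-10b controls (log2 fold change 0.04 ± 0.03, adjusted p = 0.41). COL4A2 had 987, 1040 and 969 CPM against 1009, 976 and 986 CPM (0.01 ± 0.03, adjusted p = 0.85). Every COL4A1 doxycycline sample lay above every control in both vectors, as in 10.5% of all genes with miR-10a and 16.3% with miR-10b. In the miR-10a cultures the log2 fold changes were 0.07 ± 0.03 for COL4A1 and 0.03 ± 0.03 for COL4A2 (adjusted p = 0.43 and 0.74). At this depth the SE of 0.03 made these the most tightly measured collagen genes. They are transcribed away from each other on chromosome 13, and in RefSeq (GRCh38.p14) their start sites lie 127 bp apart. The 126 bases between the start sites, chr13:110307158-110307283, are shown on the strand of COL4A2 because this stretch lies upstream of both genes, with a CCAAT motif and a GC box (GGGCGG) in capitals.
COL4A1 to COL4A2: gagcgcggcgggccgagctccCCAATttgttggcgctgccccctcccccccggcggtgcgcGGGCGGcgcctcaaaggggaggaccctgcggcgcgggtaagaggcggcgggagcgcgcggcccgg
The stretch is 80.2% G or C and holds 1 CCAAT, 1 GC box and 0 matches to TATAAA, counted on both strands. In promoter windows of 300 bases around a start site, CCAAT was found in 35.7% of 27305 RefSeq promoters and in 5 of the 19 matched windows of tested collagen genes, the GC box in 44.6% and 14, and TATAAA in 12% and 2. The windows of COL4A1 and COL4A2 share 226 bases, so the CCAAT and GC box shown above count for both genes. No window was matched for COL1A1, COL3A1, COL5A2 or COL6A1.

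COL4A3 and COL4A4, the chains of specialised basement membranes such as that of the kidney glomerulus, are a second head-to-head pair and were barely detected. COL4A4, which holds the 8mer shown above, had 1.43, 1.37 and 1.33 CPM with doxycycline against 1.67, 2.52 and 1.65 CPM in the miR-10b cultures. Its groups did not overlap there, yet the log2 fold change of -0.50 ± 0.26 was not called (adjusted p = 0.22). In the miR-10a cultures COL4A4 had 1.74 to 2.09 CPM with doxycycline and 1.55 to 2.73 CPM without (-0.09 ± 0.25, adjusted p = 0.94). COL4A3 reached 1.36, 1.57 and 1.71 CPM with doxycycline against 0.482, 1.27 and 0.641 CPM in the miR-10a cultures (0.91 ± 0.32, adjusted p = 0.21). COL4A3 came just under the threshold when miR10a NOdoxy replicate 2 was left out (adjusted p = 0.0499, log2 fold change 1.44).

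Type VI collagen was represented by COL6A1 (chr21:47401684-47424964, plus strand), which had 538, 592 and 521 CPM with doxycycline and 509, 482 and 492 CPM without in the miR-10b cultures. The groups did not overlap, and the log2 fold change of 0.15 ± 0.04 was small but called (adjusted p = 0.0028). COL6A2, its neighbour on the same strand, had 3 transcripts and 5.24 to 5.92 CPM with doxycycline against 5.4 to 6.07 CPM (log2 fold change of 0.00 ± 0.15, adjusted p = 1). COL7A1, which forms the anchoring fibrils of epithelia, had 56.2, 63.8 and 53 CPM against 51.9, 41.9 and 49.7 CPM (0.27 ± 0.07, adjusted p = 0.01). COL28A1, a von Willebrand factor A domain collagen related to type VI, had 2.78, 3.6 and 2.08 CPM against 1.59, 1.26 and 1.88 CPM (0.83 ± 0.23, adjusted p = 0.011). Both calls were lost without miR10b doxy replicate 2 or miR10b NOdoxy replicate 2, to an adjusted p of 0.13 at most for COL7A1 and 0.12 for COL28A1, and DESeq2 gave COL7A1 an adjusted p of 0.13. COL15A1 and COL18A1, the multiplexins of vascular basement membrane, and the transmembrane collagen COL23A1 were not called.

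**Figure D3:**
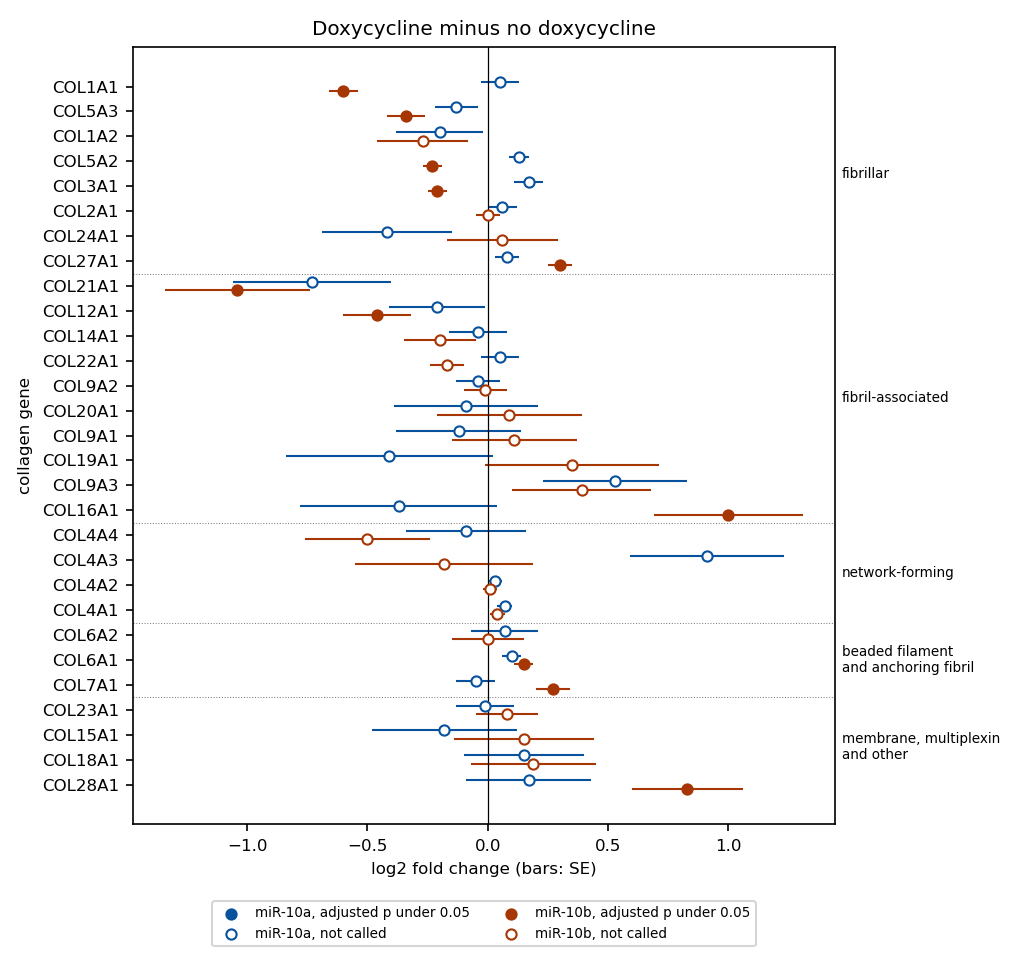
Log2 fold change of doxycycline over control (points, bars are SE) for the 29 tested collagen genes in the miR-10a and miR-10b cultures, grouped by collagen class, filled where the edgeR adjusted p was under 0.05. All 11 filled points belong to miR-10b, and COL1A1, COL3A1 and COL5A2 lie on opposite sides of 0 in the 2 vectors.

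Averaged over both vectors, 5 of the 29 collagen genes were called, where 13.9% of all genes were. COL6A1 (0.13 ± 0.03, adjusted p = 0.0005) and COL27A1 (0.19 ± 0.04, adjusted p = 0.00028) rose. COL1A1 (-0.27 ± 0.05, adjusted p = 0.00015), COL5A3 (-0.24 ± 0.06, adjusted p = 0.0041) and COL21A1 (-0.88 ± 0.23, adjusted p = 0.0061) fell. COL21A1 was the fallen gene whose doxycycline samples were below all controls in both vectors, with 0.996, 0.828 and 0.664 CPM against 1.29, 1.27 and 1.6 CPM in the miR-10a cultures. COL28A1 and COL12A1 lay just outside the threshold, with 0.50 ± 0.18 (adjusted p = 0.051) and -0.33 ± 0.12 (adjusted p = 0.063).

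The response of 3 fibrillar collagens differed between the vectors, by a test of the miR-10b effect minus the miR-10a effect. The differences were -0.65 ± 0.10 for COL1A1 (adjusted p = 9.7e-05), -0.36 ± 0.06 for COL5A2 (adjusted p = 0.0002) and -0.38 ± 0.07 for COL3A1 (adjusted p = 0.0018). These were 3 of 29 collagen genes, where 1.96% of all genes were called and 1.38% were lower, and 0 collagen genes were called higher beside 0.576% of all genes. In the miR-10a cultures COL1A1 had 51.3, 46.9 and 43.6 CPM with doxycycline and 46.5, 46.3 and 44 CPM without. COL3A1 had 39.6, 39.7 and 39 CPM against 35.1, 33.1 and 37.2 CPM there, and COL5A2 111, 108 and 105 CPM against 104, 95.2 and 97.5 CPM. The miR-10a doxycycline samples were thus above all their controls in COL3A1 and COL5A2, where the miR-10b samples were below theirs, although the miR-10a change itself was not called in either gene (0.17 ± 0.06 and 0.13 ± 0.04, adjusted p = 0.22 and 0.16). Without miR10b doxy replicate 3 the count was 5, with COL7A1 and COL27A1 added.

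COL1A1, COL3A1, COL5A2 and COL5A3 also stood apart in the cultures without doxycycline. The miR-10b controls differed from the miR-10a controls in 11 of 29 collagen genes, where 14.1% of all genes differed. Higher in the miR-10b controls were 9 of them, where 7.41% of all genes were higher, and 2 were lower, where 6.72% were. The median log2 difference of the 29 was 0.07 beside -0.01 for all genes. The control groups did not overlap in 9 genes that were higher and 3 that were lower, beside 14.2% and 15.9% of all genes (30.1% in either direction). Of the 8 fibrillar collagens 6 were higher and 0 lower. COL3A1 differed most, with 131, 136 and 138 CPM against 35.1, 33.1 and 37.2 CPM, a 3.85-fold difference (log2 1.95 ± 0.05, adjusted p = 1.3e-26). COL1A1 was 2.24-fold higher (1.16 ± 0.07, adjusted p = 4.3e-16), COL12A1 2.19-fold (1.13 ± 0.15, adjusted p = 6.3e-07) and COL22A1, a collagen of tissue junctions, 1.83-fold (0.87 ± 0.07, adjusted p = 7.3e-12). COL5A2 and COL5A3 were 1.78-fold and 1.66-fold higher.

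COL27A1, COL2A1 and COL6A1 were higher by 0.27, 0.24 and 0.11 on the log2 scale. The call of COL6A1 (adjusted p = 0.036) was lost without replicate 1 or 3 of either control group (up to 0.19). The 2 genes that were lower, named after their values were seen, were COL14A1 (-0.63 ± 0.13, adjusted p = 0.00046) and COL23A1 (-0.46 ± 0.12, adjusted p = 0.0073), and COL23A1 was lost without miR10a NOdoxy replicate 2 (0.11). COL1A2 did not follow COL1A1, with 4.34, 6 and 4.97 CPM in the miR-10a controls and 4.45, 3.56 and 5.26 CPM in the miR-10b controls (-0.22 ± 0.17, adjusted p = 0.5). COL4A1 and COL4A2 each differed by -0.04 ± 0.03 (adjusted p = 0.52 and 0.47). Vector, transduction and culture cannot be told apart in this comparison, and it shares its control samples with the doxycycline comparisons.

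**Figure D4:**
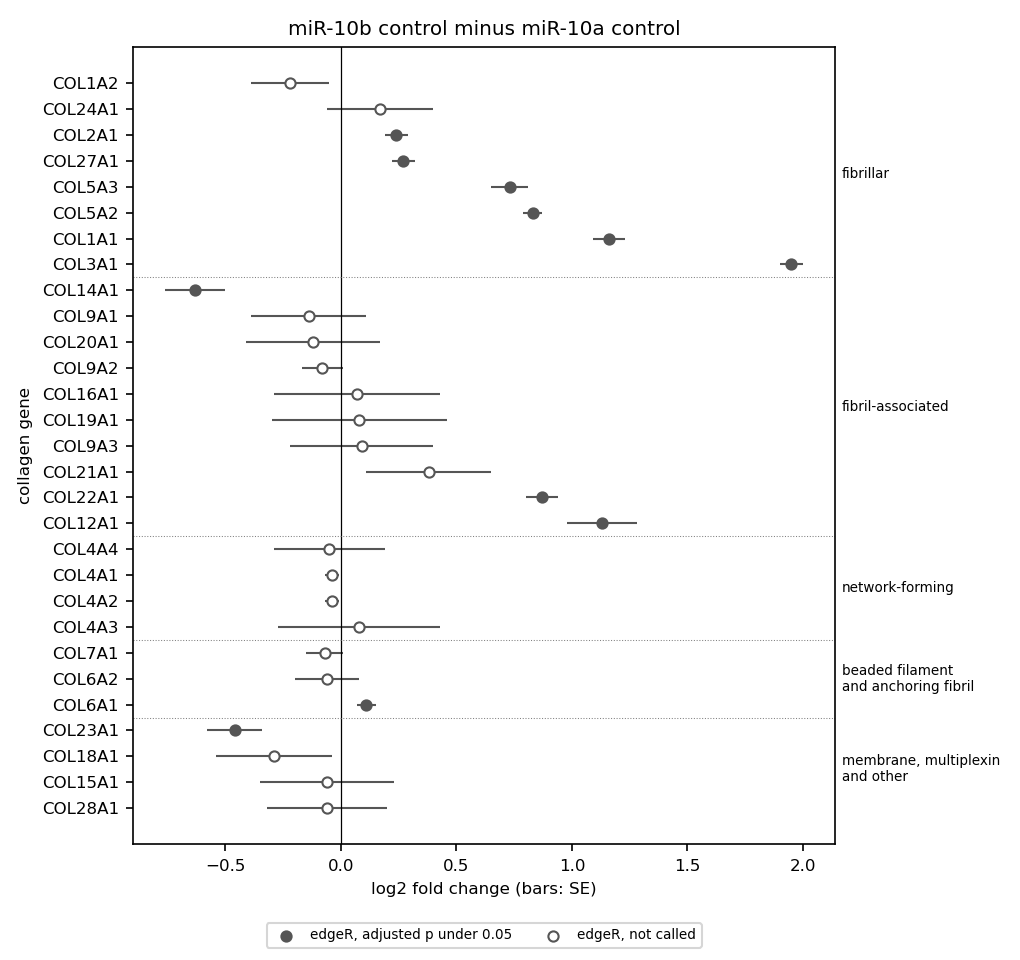
Log2 difference of the miR-10b controls from the miR-10a controls (points, bars are SE) for the 29 tested collagen genes by class, filled where the edgeR adjusted p was under 0.05. The fibrillar genes reach 1.95 in COL3A1, whereas COL4A1 and COL4A2 sit at -0.04.

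Some markers of other cell types differed between these groups. The counts in this and the next paragraph stand beside the following shares of all genes. With doxycycline 0.472% were higher and 0.742% lower in the miR-10a cultures, and 8.18% and 7.15% in the miR-10b cultures. In the average over both vectors the shares were 7.67% and 6.22%. Between the controls 7.41% were higher and 6.72% lower with miR-10b. The 12 fibroblast and meningeal markers summed to 135 to 150 CPM in the miR-10a doxycycline samples, 137 to 144 CPM in their controls, 188 to 202 CPM in the miR-10b doxycycline samples and 196 to 205 CPM in their controls. Of the 8 that were tested 4 were higher in the miR-10b than in the miR-10a controls, namely LUM, TWIST1, FOXC2 and PDGFRA, and THY1 was lower. LUM, a proteoglycan of collagen fibrils, had 22.7, 24.4 and 24.5 CPM against 11.3, 10.7 and 12.2 CPM. DCN, POSTN, PRRX1 and TWIST2, which have several transcripts each, had at most 3 counts in any sample. In such genes a low count does not show a low level. With doxycycline 0 of the 8 changed in either vector, and for LUM in the miR-10b cultures, with 20.1, 20.5 and 21.8 CPM, the log2 fold change was -0.20 ± 0.08 (adjusted p = 0.1).

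The smooth muscle and pericyte list summed to 855 to 884 CPM with doxycycline and 834 to 869 CPM without in the miR-10b cultures. Most of this was NOTCH3, with means of 820 and 789 CPM there (0.06 ± 0.03, adjusted p = 0.23). CNN1 (-0.73 ± 0.12, adjusted p = 2.8e-05) and KCNJ8 (-0.28 ± 0.08, adjusted p = 0.015) fell in the miR-10b cultures, 2 of 7 tested. MYH11, which also has several transcripts, was at 0 in all samples. CNN1 was also higher in the miR-10b than in the miR-10a controls (0.35 ± 0.11, adjusted p = 0.026), as was ABCC9. The endothelial list summed to 8.97 to 12.2 CPM in the 4 groups. Of its 3 tested genes ESAM fell with doxycycline in the miR-10b cultures (-0.75 ± 0.18, adjusted p = 0.0032) and was higher in the miR-10b controls (0.69 ± 0.17, adjusted p = 0.005), and KDR rose in the average over both vectors (0.84 ± 0.21, adjusted p = 0.004). The neural crest list summed to 5.64 to 9.7 CPM, and of its 2 tested genes ERBB3 rose in the miR-10b cultures (0.58 ± 0.19, adjusted p = 0.029). The chondrocyte and notochord list summed to 76 to 87.2 CPM, mostly SOX9 with group means of 52.6 to 56.5 CPM. Of its 4 tested genes 0 were called with doxycycline, and MATN3 was higher in the miR-10b controls. The 9 endoderm and epithelium genes summed to 8.51 to 11.1 CPM in the miR-10a groups. Their sums were 18.1 to 19.2 CPM in the miR-10b controls and 13.2 to 15.7 CPM in the miR-10b doxycycline samples. TTR and APOA1 were higher in the miR-10b than in the miR-10a controls. Both fell with doxycycline in the miR-10b cultures and were not called in the miR-10a cultures. Of 11 neural progenitor genes 3 fell with doxycycline in the miR-10b cultures, and of 5 neuronal genes 3 rose. Between the controls 6 of the 11 neural progenitor genes were higher with miR-10b, among them the floor plate genes CORIN (1.61 ± 0.10) and LMX1A (1.01 ± 0.17), and SOX1 was lower (-1.23 ± 0.06), while 0 of the 5 neuronal genes were called. Of 2 tested pluripotency genes LIN28A fell with doxycycline in both vectors, and both LIN28A (-0.44 ± 0.03) and DPPA4 (-0.43 ± 0.04) were lower in the miR-10b controls. The part of any of these cells in the collagen values was not tested.

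Collagen chains are hydroxylated, glycosylated, folded, trimmed and cross-linked by other proteins, of which 27 of 34 listed genes were tested. Averaged over both vectors 4 rose and 7 fell, beside 7.67% and 6.22% of all genes, and the median log2 fold change was 0.00. P4HB, the β subunit of prolyl 4-hydroxylase, which hydroxylates every collagen chain, changed most clearly. It had 597, 585 and 583 CPM with doxycycline against 682, 666 and 661 CPM in the miR-10a cultures, and 473, 454 and 444 CPM against 744, 733 and 761 CPM in the miR-10b cultures. No doxycycline sample reached a control in either vector. P4HB fell by 0.19 ± 0.03 on the log2 scale with miR-10a (adjusted p = 0.00027) and by 0.71 ± 0.03 with miR-10b (adjusted p = 5e-19), and the effects differed by -0.52 ± 0.04 (adjusted p = 3.6e-10). P4HA1, P4HA2 and P4HA3, which have several transcripts each, had at most 4 counts in any sample and were not tested.

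Lysyl oxidase-like LOXL2, which cross-links collagen, had 47.2, 48.6 and 47 CPM against 67, 61.4 and 64.1 CPM in the miR-10b cultures (-0.43 ± 0.05, adjusted p = 2.7e-07). In the miR-10a cultures its log2 fold change was -0.05 ± 0.05, and the difference of -0.38 ± 0.08 was called (adjusted p = 0.0027). Averaged over the vectors the lysyl hydroxylase PLOD1 fell (-0.17 ± 0.03, adjusted p = 7.9e-05), as did the endoplasmic reticulum channel TMEM38B (-0.17 ± 0.03, adjusted p = 0.00015) and the procollagen C-proteinase TLL1 (-0.74 ± 0.15, adjusted p = 0.00075). PCOLCE, the enhancer of procollagen C-proteinase, rose on average (0.23 ± 0.05, adjusted p = 0.00063). It had 27.1, 27.2 and 25.9 CPM against 21.6, 21 and 22.5 CPM in the miR-10a cultures, where it was called. In the miR-10b cultures, with 47.7, 51.9 and 49.1 CPM against 46.4, 40.7 and 45.8 CPM, it was not called.

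**Figure D5:**
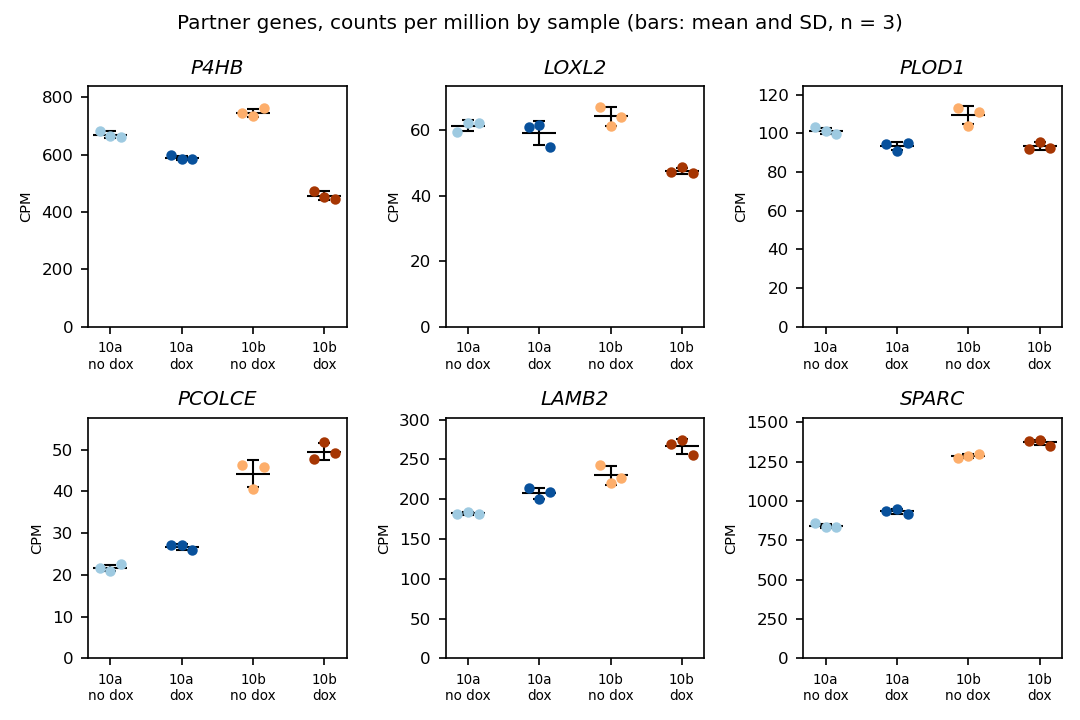
CPM in every sample (points) with the mean and SD of each group of 3 (bars) for 4 genes of collagen processing and 2 of the basement membrane, vertical axes starting at 0. P4HB falls to 444 to 473 CPM in the miR-10b doxycycline samples, and in LAMB2 the doxycycline samples lie above their controls in both vectors.

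Averaged over both vectors, 6 of 13 tested partners of type IV collagen in the basement membrane rose and 0 fell. The shares of all genes were 7.67% and 6.22%. COL4A1 and COL4A2 were not called, with averages of 0.05 ± 0.02 (edgeR adjusted p = 0.1) and 0.02 ± 0.02 (adjusted p = 0.54). The COL4A1 value lay close to those of the called partners NID1 and FREM1. FREM2, a basement membrane adhesion protein, rose most (0.29 ± 0.03, adjusted p = 1.5e-10), followed by the laminin chains LAMB2 (0.20 ± 0.03, adjusted p = 1.3e-06) and LAMA5 (0.17 ± 0.03, adjusted p = 0.00079). SPARC, a collagen-binding glycoprotein, had 938, 948 and 918 CPM against 858, 836 and 838 CPM in the miR-10a cultures and 1379, 1386 and 1353 CPM against 1277, 1287 and 1299 CPM in the miR-10b cultures (0.12 ± 0.02, adjusted p = 3.1e-05). NID1 rose by 0.08 on average. FREM1 rose by 0.07 on average, with a log2 fold change of -0.02 ± 0.03 in the miR-10a and 0.16 ± 0.03 in the miR-10b cultures, and this difference was called (0.19 ± 0.05, adjusted p = 0.019). The median of the 13 was 0.07, beside 0.01 for all genes.

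The counts that follow stand beside the same 7.67% of all genes higher and 6.22% lower on average. Among 7 tested receptors and integrins the collagen-binding subunit ITGA1 fell (average -0.21 ± 0.05, adjusted p = 0.0045) and the fibronectin-binding subunit ITGA5 rose (0.20 ± 0.03, adjusted p = 5.6e-05). By vector, ITGA1 was called only with miR-10b, with 27.3, 26.4 and 30.5 CPM against 34.5, 37 and 39.4 CPM. In the miR-10a cultures ITGA1 had 26.3, 24.6 and 23.9 CPM against 26.2, 26.7 and 23.5 CPM. Of 13 tested proteases and inhibitors the membrane-type protease MMP15 (0.16 ± 0.03) and the inhibitors RECK (0.13 ± 0.04) and TIMP2 (0.09 ± 0.03) rose and 0 fell. Of 15 tested partners of fibrillar collagen 1 rose and 2 fell on average, CTGF by -0.27 ± 0.03, FBN2 by -0.07 ± 0.02 and FBN1 by 0.09 ± 0.02. The effect on CTGF differed between the vectors, with -0.06 ± 0.04 in the miR-10a and -0.49 ± 0.04 in the miR-10b cultures (difference -0.43 ± 0.05, adjusted p = 1.6e-06). In the miR-10b cultures 5 of these 15 fell and 0 rose, beside 7.15% and 8.18% of all genes, named after their values were seen as TGFBI, CTGF, TNC, FBLN1 and FBN2. TNC, which is tenascin C, had 61.3, 63.2 and 71.3 CPM against 95.2, 75 and 84 CPM there, and 22.5, 22 and 17.2 CPM in the miR-10a controls. Its log2 fold change was -0.37 ± 0.07 with miR-10b and 0.35 ± 0.11, not called, with miR-10a, and the difference of -0.72 ± 0.13 was called (adjusted p = 0.0008). In the comparison of the controls 8 of the 15 were higher in the miR-10b cultures and 1 was lower, beside 7.41% and 6.72% of all genes, and the median log2 difference of 0.38 stood beside 0.50 for the 8 fibrillar collagens and -0.01 for all genes.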

How the data were processed

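RNA was sequenced from 12 samples of differentiated H9 cells, 3 in each of 4 groups given by the sample titles. The authors deposited raw counts per RefSeq transcript on hg19, and the submitters' processing notes name STAR, Subread and featureCounts, with versions and strand setting not given in the sources used here. The study's methods describe poly-A-enriched libraries read as 50-bp single ends, and the labels name other kits. The library totals of 10545487 to 14165426 counts set the precision of low values.

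Repeated rows of a transcript (3698 of 51799) were dropped, 1 transcript per gene was kept, and genes with a mean of more than 10 counts were fitted in edgeR 4.0.16 (quasi-likelihood test, library size as the total count, 4 group means, Benjamini-Hochberg adjustment over 11451 genes, threshold 0.05). Alternatives were TMM factors, DESeq2 1.42.0, no filter, a mean over 50 counts, a replicate block, counts summed over transcripts, leaving out each sample and fitting only the 6 samples compared. The fit was tested on simulated data. The 3′ untranslated regions and gene positions came from GENCODE 44 lifted to GRCh37, the same assembly as hg19, and the start sites and the miR-10a-5p sequence from RefSeq on GRCh38.p14. Of 44 collagen genes 44 matched a position and 32 a promoter window.

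The collagen genes, the lists of partner and marker genes and the tests were chosen with earlier results of these data known. Named are collagen genes called in any doxycycline contrast, the 5 with the highest RPKM, partner chains, genes just outside the threshold in the average contrast, the 5 largest control differences, and of each partner list up to 6 genes with the largest change among those called in the average contrast. Other genes are given as examples of levels or as members that were not called.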

Additional observations from a re-analysis of the deposited data

Results flagged for a closer look

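In 3 fibrillar collagens the doxycycline effect differed between the 2 vectors by the interaction test in edgeR. The miR-10b effect minus the miR-10a effect was -0.65 on the log2 scale for COL1A1, -0.38 for COL3A1 and -0.36 for COL5A2, and every fit that left out a sample kept these 3 calls, with ranges of -0.74 to -0.58, -0.42 to -0.33 and -0.40 to -0.34. The same genes were higher in the miR-10b controls than in the miR-10a controls, by 1.16, 1.95 and 0.83, so the 2 effects start from different levels and share those controls.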

How the results depend on the processing

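The counts of collagen genes called were 0 for miR-10a, 11 for miR-10b, 5 for the average, 3 for the difference between vectors and 11 for the controls. Leaving out 1 sample at a time gave 0 to 1, 7 to 11, 5 to 6, 3 to 5 and 10 to 11. Fitting only the 6 miR-10a samples gave 1. DESeq2 called 6 for miR-10b (2 higher, 4 lower), where 4 of the 11 genes had no adjusted p and 1 was tested and not called. Without a filter on low counts the difference gave 5, adding COL7A1 and COL27A1. Replicate numbers did not pair the samples (mean correlation of their deviations -0.0093 for the same number and 0.0047 for different numbers), and the fit with the replicate block gave 0, 11, 5, 3 and 11. For the collagen genes called in a comparison or just outside its threshold, 561 values under alternatives kept direction and call, 20 lost and 5 gained the call, and 0 changed direction. Outside these, COL4A3 and COL6A1 with miR-10a, and COL7A1 and COL27A1 in the difference, gained a call in the fits named for them. Depth limits the genes of a few CPM, COL12A1, COL16A1, COL21A1 and COL28A1, and shared reads limit the genes with several transcripts.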
